A study of Mus musculus with 8 samples.

Results

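The 10 genes described here encode enzymes that add a double bond to a fatty acid or lengthen it: the stearoyl-CoA desaturases Scd1, Scd2, Scd3 and Scd4, the elongases Elovl1, Elovl3, Elovl5 and Elovl6, and the desaturases of polyunsaturated fatty acids Fads1 and Fads2. They were chosen by name as members of 3 enzyme families, and all 10 were found among the 22552 gene symbols quantified. Ribosome-bound RNA of UCP1-positive cells was sequenced in 3 libraries of inguinal white adipose tissue (WAT), 2 of perigonadal WAT and 3 of interscapular brown adipose tissue (BAT). Per the labels the groups differed in the depot alone. Each came from females, 6 weeks old, of the strain labelled C57B/6 UCP1-TRAP, in which a GFP tag on the ribosomes of cells that use the Ucp1 promoter lets an anti-GFP antibody pull down their mRNA. The mice were bred at 30 °C, moved to room temperature at weaning at 3 weeks, and kept at 4 °C for 2 weeks from the age of 4 weeks. There was no warm control group, so every comparison is between depots in the cold, and whole-tissue RNA was not analysed here. No label says whether libraries of 1 group came from different animals. The p-values therefore reflect the spread between these libraries alone, which may be technical.

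Fatty acid synthase makes palmitate, a saturated fatty acid. Elovl6 lengthens palmitate to stearate, and the Scd enzymes, sitting in the membrane of the endoplasmic reticulum, convert palmitate and stearate into the monounsaturated palmitoleate and oleate that adipocytes store as triglyceride. Elovl3 and Elovl1 make saturated and monounsaturated very long chains, and Elovl3 is known for its strong induction in brown fat of mice in the cold. Fads1 and Fads2, with Elovl5, turn the essential fatty acids of the diet into arachidonate and other long polyunsaturated chains.

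The 4 Scd genes lie within 204 kb of chromosome 19 (build mm9 throughout for positions in the files): Scd3 at chr19:44277778-44318506, Scd2 at chr19:44368166-44381352 and Scd4 at chr19:44407816-44421233, all on the plus strand, and Scd1 at chr19:44468940-44482199 on the minus strand. Their messages are close copies, which bears on how far reads can be told apart. Over the coding sequence, Scd1 (1068 bases) was 89.6% identical to Scd2, 90.5% to Scd3 and 84.2% to Scd4. Windows of 36 bases were taken over the whole transcript, untranslated ends included. The share that also occurred in another Scd transcript was 6.92% for Scd1, 5.46% for Scd2, 9.61% for Scd3 and 5.59% for Scd4. The share within the coding sequence alone was not measured. The 60 bases that begin at the codons of the first histidine box, part of the iron-binding centre of these enzymes, are shown because they hold both identical and divergent stretches. Capitals mark bases that differ from Scd1, of which there are 5 in Scd2, 4 in Scd3 and 10 in Scd4 (mouse transcripts of GENCODE M21, 5′ to 3′).
Scd1: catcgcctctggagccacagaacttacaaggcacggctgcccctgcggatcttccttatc
Scd2: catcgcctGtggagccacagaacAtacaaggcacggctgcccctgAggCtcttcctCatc
Scd3: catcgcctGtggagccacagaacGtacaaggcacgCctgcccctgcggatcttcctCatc
Scd4: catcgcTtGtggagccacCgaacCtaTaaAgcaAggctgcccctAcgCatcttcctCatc

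Values are deposited FPKM, fragments per length of transcript and per size of library, summed over the transcripts of a gene. They are levels per length and can be set side by side between genes. A difference between depots was tested with limma on log2(FPKM + 1) over the 8958 genes that reached 1 FPKM in 2 or more libraries, and a gene was called at a Benjamini-Hochberg adjusted p under 0.05. All 10 genes passed that filter. Scd3, Scd4, Elovl1, Fads1 and Fads2 reached 1 FPKM in at most 1 BAT library and so passed only through WAT libraries, which means that they could be called higher in WAT but hardly lower. Folds are ratios of mean FPKM, while log2 fold changes are on the log2(FPKM + 1) scale and understate the change of low genes. Summed FPKM ran from 75925 in inguinal replicate 3 to 206549 in perigonadal replicate 1, and the estimated fragments on listed genes from 265763 to 1179557 in the same libraries. Over all genes tested the median log2 fold change from BAT was 0.52 in perigonadal WAT and 0.03 in inguinal WAT. It was -0.50 when inguinal was set against perigonadal WAT. Values after median-ratio scaling, which brings these medians to 0.02, 0.01 and -0.01, are therefore given wherever a call or a direction turned on it. The folds are of deposited values and were not scaled.

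The mean level of every one of the 10 genes was highest in perigonadal WAT, intermediate in inguinal WAT and lowest in BAT, an order that 50.4% of all genes tested shared on the deposited scale. After median-ratio scaling 7 of 10 kept it (22.3% of genes tested). Elovl1 and Fads2 were then slightly higher in inguinal than in perigonadal WAT, and Elovl3 was lowest in perigonadal WAT. Against BAT, 4 of the 10 genes were called higher in inguinal WAT (background 1.73% of genes tested) and 9 of 10 in perigonadal WAT (background 4.91%). Of the 5 genes that also reached 1 FPKM in 2 BAT libraries, Scd1, Scd2, Elovl3, Elovl5 and Elovl6, the counts were 2 in inguinal WAT (background 0.646% of 6968 such genes) and 4 in perigonadal WAT (background 3.65%). None had a negative log2 fold change against BAT on the deposited scale. After median-ratio scaling the counts over all members were 6 of 10 (background 2.99%) and 7 of 10 (background 2.61%). Of the genes that also passed in BAT, Scd1 and Scd2 were then called in inguinal WAT, and Scd1, Scd2 and Elovl6 in perigonadal WAT. The remaining scaled calls were of genes that passed only through WAT libraries. No scaled background was computed for genes that also passed in BAT. Without the filter on low values limma called 0 of 10 for inguinal WAT, with 9 at an unadjusted p under 0.05, and 6 of 10 for perigonadal WAT. Between the white depots 1 of 10, Scd1, was called lower in inguinal WAT (background 0.402%). After scaling limma called 0 of 10 there (0.313% of all genes tested, all of them higher), and 2 of 10 had an unadjusted p under 0.05. The libraries of inguinal WAT and BAT did not overlap, with inguinal WAT higher, for 9 of 10 genes (6.81% of genes tested), and those of perigonadal WAT and BAT for 10 of 10 (48.3%). Inguinal libraries were all below both perigonadal libraries for 8 of 10 (27.5%). These counts are of deposited values. After scaling, inguinal and perigonadal libraries also overlapped for Scd3, Elovl5, Elovl6, Fads1 and Fads2. Perigonadal and BAT libraries then overlapped for Elovl3. The shares of all genes tested without overlap were not computed after scaling. Relative to BAT, the median log2 fold change of the 10 genes was 1.30 in inguinal and 1.99 in perigonadal WAT, or 1.37 and 1.54 after scaling. Over the 5 genes that also passed in BAT it was 0.79 and 1.88. The comparisons share libraries, so they are not independent of each other.

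**Figure D1:**
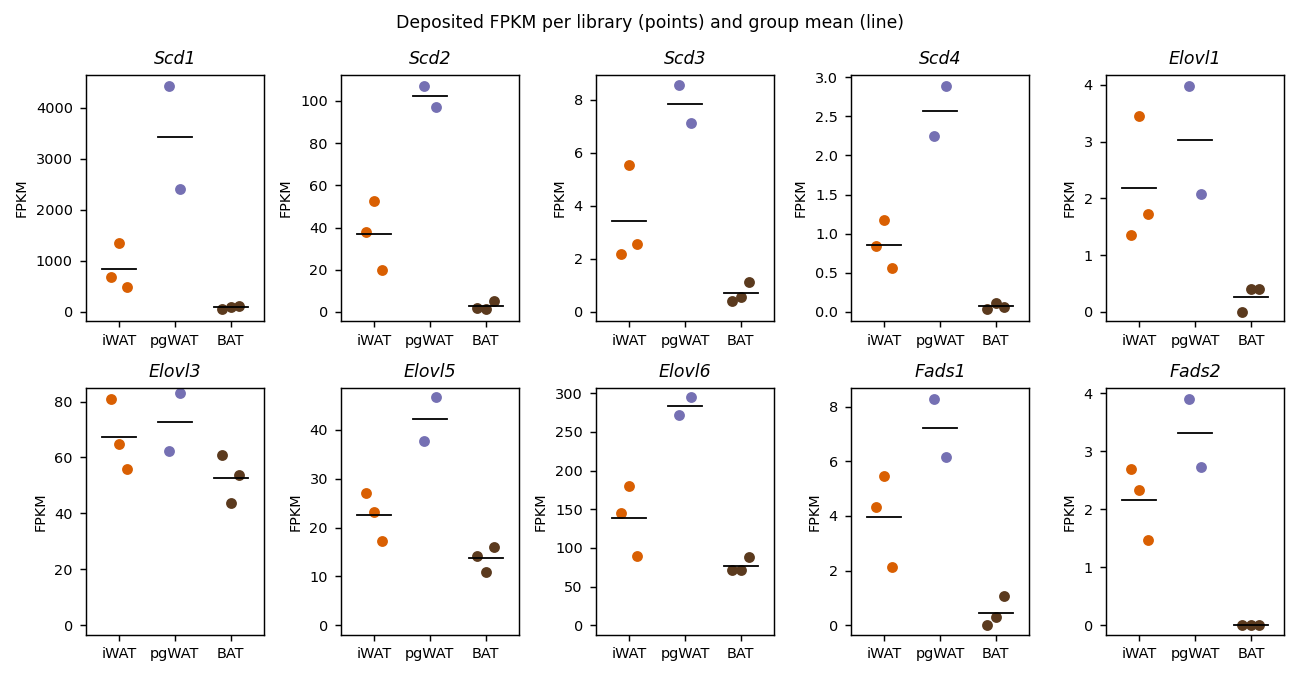
Deposited FPKM of the 10 genes (vertical axis, linear, its own range in each panel) in each library of inguinal WAT (iWAT, n = 3), perigonadal WAT (pgWAT, n = 2) and BAT (n = 3); points are libraries and lines are group means. Scd1 and Scd2 fall steeply from perigonadal WAT to BAT, whereas the libraries of Elovl3 lie between 43.7 and 82.9 FPKM in all 3 depots, and every BAT library lists Fads2 at 0.

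Scd1, the main delta-9 desaturase of adipose tissue and liver, was the most abundant of its family in every library and had the largest log2 fold change of the 10 genes in perigonadal WAT against BAT, while in inguinal WAT that of Scd2 was larger. It had 691, 1345 and 486 FPKM in inguinal replicates 1 to 3, 4428 and 2413 FPKM in the perigonadal libraries, and 54.5, 106 and 110.1 FPKM in the BAT libraries. The 3 groups did not overlap. Among all gene symbols Scd1 ranked 13, 3 and 11 in the inguinal libraries, 3 in both perigonadal libraries, and 403, 209 and 191 in the BAT libraries.

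In inguinal WAT the mean of Scd1 was 841 ± 449 FPKM (SD, n = 3), 9.32-fold that of BAT at 90.2 ± 31.0 FPKM (SD, n = 3), a log2 fold change of 3.14 with an SE of 0.32 (adjusted p = 7.50e-12). In perigonadal WAT it was 3420.1 ± 1425 FPKM (SD, n = 2), 37.9-fold that of BAT (log2 fold change 5.23, SE 0.35, adjusted p = 1.41e-19). Scaling left a log2 fold change of 3.13 (adjusted p = 0.000522) for inguinal and 4.55 (adjusted p = 0.000238) for perigonadal WAT. Between the white depots inguinal WAT was 4.07-fold lower, with a log2 fold change of -2.09, SE 0.35 (adjusted p = 0.000116). That call rested on single libraries and on the scaling: the adjusted p was 0.11 without perigonadal replicate 1, 0.0502 without inguinal replicate 3 and 0.21 after scaling.

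Scd2, the desaturase best known from brain and from newborn mice, followed the same order at a lower level. It had 38.1, 52.7 and 19.7 FPKM in the inguinal libraries, 107 and 97.0 FPKM in the perigonadal libraries, and 1.84, 1.42 and 5.36 FPKM in the BAT libraries. The groups did not overlap, although BAT replicate 3 stood well above the other BAT libraries, with 47.1 estimated fragments against 15 and 13. The mean in inguinal WAT was 12.8 times that of BAT, a log2 fold change of 3.32 with an SE of 0.42 (adjusted p = 1.36e-08). In perigonadal WAT it was 35.5 times that of BAT, a log2 fold change of 4.87 with an SE of 0.47 (adjusted p = 6.43e-13). Without BAT replicate 3 these folds were 22.6 and 62.5. With all libraries, scaling left log2 fold changes from BAT of 3.34 (adjusted p = 0.000522) in inguinal and 4.23 (adjusted p = 0.000417) in perigonadal WAT. Inguinal against perigonadal WAT gave a log2 fold change of -1.55 (SE 0.47, adjusted p = 0.119), with a 95% interval of -2.49 to -0.61. It was called there without inguinal replicate 2 (adjusted p = 0.0315). After scaling the log2 fold change there was -0.89 and was not called (adjusted p = 0.637).

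Scd3, a desaturase of skin and its glands, and Scd4, known from the heart, were rare. Scd3 had 2.18, 5.55 and 2.58 FPKM in the inguinal, 8.55 and 7.13 FPKM in the perigonadal, and 0.412, 0.579 and 1.13 FPKM in the BAT libraries. Scd4 had 0.837, 1.17 and 0.568 FPKM in the inguinal, 2.25 and 2.89 FPKM in the perigonadal, and 0.0438, 0.118 and 0.0571 FPKM in the BAT libraries. On the deposited scale neither gene had overlapping groups. After scaling the inguinal libraries of Scd3 (1.80 to 4.88 FPKM) overlapped the perigonadal ones (4.66 and 6.19 FPKM).

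Both passed the test in perigonadal WAT against BAT, where the fold was 11.1 for Scd3, with a log2 fold change of 2.39 ± 0.44 (SE, adjusted p = 8.40e-05), and the log2 fold change of Scd4 was 1.73 ± 0.41 (SE, adjusted p = 0.00381). After scaling these log2 fold changes were 1.86 and 1.37 (adjusted p = 0.0133 and 0.0172). No fold is given for Scd4, since its estimated fragments stayed under 1 in each BAT library. In inguinal WAT against BAT, Scd3 lay at the threshold with a log2 fold change of 1.32 (SE 0.39, adjusted p = 0.0503) and was called after scaling (adjusted p = 0.0343). Scd4 was not called there (log2 fold change 0.78, SE 0.37, adjusted p = 0.499). These values are uncertain. The estimated fragments were not whole for either gene, 1.44 to 5.36 for Scd4 in inguinal libraries, and Scd3 amounted to 0.193 to 1.03% and Scd4 to 0.0508 to 0.121% of the Scd1 level in the same library. Whether they hold fragments of the similar Scd1 message was not tested.

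Scd1 made up 94.4 to 98.0% of the summed FPKM of the 4 Scd genes in every library, so the make-up of the family varied little while its total varied widely. The Scd1 to Scd2 ratio was 18.1, 25.5 and 24.7 in the inguinal, 41.3 and 24.9 in the perigonadal, and 29.6, 74.6 and 20.5 in the BAT libraries. The ranges overlapped for each pair of depots. Over all assignments of the 8 libraries to the 3 groups the exact permutation p of the log2 ratio was 0.554 (0.579 adjusted over 6 ratios). Means of the log2 ratio were 4.49 ± 0.27 (SD, n = 3) in inguinal WAT, 5.001 ± 0.52 (SD, n = 2) in perigonadal WAT and 5.09 ± 0.93 (SD, n = 3) in BAT.

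**Figure D2:**
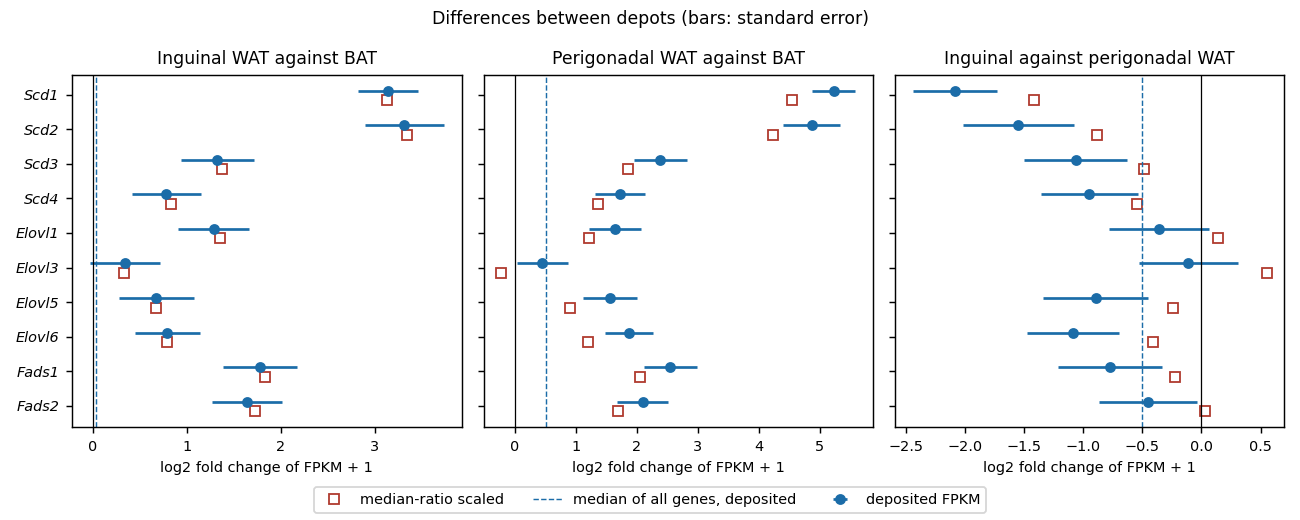
Log2 fold change of FPKM + 1 (horizontal axis) of each gene in the 3 comparisons of depots, with its standard error as a bar for the deposited values (filled circles) and the value after median-ratio scaling (open squares); the dashed line is the median of all genes tested on the deposited scale. Scd1 and Scd2 lie farthest from 0 in both comparisons with BAT, Elovl3 lies nearest to 0, and in perigonadal WAT against BAT scaling moves Elovl3 from 0.45 to -0.22.

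Among the elongases, Elovl6 (chr3:129235304-129341411, plus strand), which lengthens palmitate to stearate, was the most abundant in all 8 libraries. It had 145, 180.1 and 89.9 FPKM in the inguinal, 272 and 296 FPKM in the perigonadal, and 71.3, 71.3 and 87.8 FPKM in the BAT libraries. The 3 groups did not overlap on the deposited scale, but inguinal replicate 3 was only just above BAT replicate 3. After scaling inguinal WAT (119 to 165 FPKM) overlapped perigonadal WAT (148 and 257 FPKM). Perigonadal WAT, at 284 ± 17.0 FPKM (SD, n = 2), was 3.69-fold above BAT at 76.8 ± 9.56 FPKM (SD, n = 3), with a log2 fold change of 1.88 and an SE of 0.39 (adjusted p = 0.000742, and 0.0225 after scaling). Inguinal WAT was 1.80-fold above BAT (log2 fold change 0.79, SE 0.35, adjusted p = 0.424), which is not a call. The adjusted p was 0.00440 without inguinal replicate 3, the shallowest library, and 0.0187 with quantile normalization. After median-ratio scaling of all libraries it was 0.0840, again not a call. Elovl6 was also not called there when inguinal replicate 1 or 2 or any single BAT library was left out.

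Elovl3 (chr19:46206389-46210184, plus strand, 1724 kb from the Scd cluster) was not called between any pair of depots. It had 81.1, 64.7 and 56.0 FPKM in the inguinal, 62.3 and 82.9 FPKM in the perigonadal, and 61.0, 43.7 and 53.8 FPKM in the BAT libraries, from 108 to 233 estimated fragments. Inguinal WAT overlapped both other depots, and the lowest perigonadal library was just above the highest BAT library. After scaling the perigonadal libraries (34.0 and 72.0 FPKM) overlapped those of BAT (48.5 to 65.8 FPKM).

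The mean of Elovl3 was 67.2 ± 12.7 FPKM (SD, n = 3) in inguinal WAT, 72.6 ± 14.6 FPKM (SD, n = 2) in perigonadal WAT and 52.8 ± 8.67 FPKM (SD, n = 3) in BAT. Against BAT the log2 fold change was 0.34 for inguinal WAT (95% interval -0.41 to 1.08, adjusted p = 0.979) and 0.45 for perigonadal WAT (95% interval -0.38 to 1.28, adjusted p = 0.494). The latter turned to -0.22 after scaling (95% interval -0.94 to 0.50). On the deposited scale the intervals reach past a 2-fold higher level in either white depot. After scaling they stayed within 2-fold, with -0.32 to 0.98 in inguinal WAT. Both are still wide, so equality is not shown. Each of the other 9 genes was called in at least 1 comparison on the deposited scale. Of these, Scd3, Scd4, Elovl1, Fads1 and Fads2 had passed the filter only through WAT libraries. Elovl3 was called on neither scale, and Elovl5 was also not called in any comparison after scaling (adjusted p 0.111 to 0.909).

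Elovl5 (chr9:77765172-77832326, plus strand), the elongase of polyunsaturated chains, had 27.1, 23.2 and 17.3 FPKM in the inguinal, 37.8 and 46.8 FPKM in the perigonadal, and 14.3, 10.8 and 16.003 FPKM in the BAT libraries. The groups did not overlap on the deposited scale. After scaling inguinal WAT (20.4 to 31.7 FPKM) overlapped perigonadal WAT (20.6 and 40.6 FPKM). Perigonadal WAT was 3.09-fold above BAT (log2 fold change 1.57, SE 0.45, adjusted p = 0.0223), but the adjusted p was 0.111 after scaling and 0.0692 to 0.254 when any 1 library of either group was left out. Inguinal WAT was 1.64-fold above BAT (log2 fold change 0.67, SE 0.40, adjusted p = 0.754).

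Elovl1 (chr4:118100698-118105521, plus strand), an elongase of saturated very long chains, was the rarest of the family, with 1.35, 3.45 and 1.72 FPKM in the inguinal, 3.98 and 2.08 FPKM in the perigonadal, and 0, 0.402 and 0.409 FPKM in the BAT libraries. It was called higher in perigonadal WAT than in BAT, with a log2 fold change of 1.64 ± 0.43 (SE, adjusted p = 0.00959). The adjusted p was 0.43 without perigonadal replicate 1, 0.09 without BAT replicate 1 and 0.0615 after scaling. In inguinal WAT against BAT it was not called (log2 fold change 1.28, SE 0.38, adjusted p = 0.0519), whereas after scaling it was (adjusted p = 0.0310).

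The make-up of the elongase family within a library does not depend on scaling between libraries. Elovl3 made up 34.0 to 41.6% of the summed FPKM of the 4 elongases in BAT, 23.8 to 34.0% in inguinal WAT and 16.6 to 19.4% in perigonadal WAT. Elovl6 made up 48.6 to 56.5% in BAT, 54.5 to 66.3% in inguinal and 69.2 to 72.3% in perigonadal WAT, while Elovl5 stayed between 8.56 and 10.9% in all libraries.

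**Figure D3:**
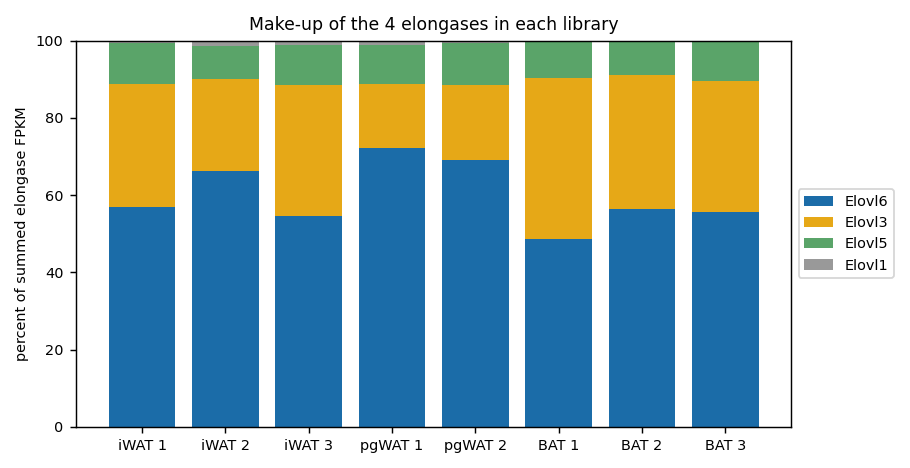
Percent of the summed FPKM of Elovl1, Elovl3, Elovl5 and Elovl6 (vertical axis) taken by each gene in each library of inguinal WAT (iWAT), perigonadal WAT (pgWAT) and BAT. Elovl6 takes 69.2 to 72.3% in both perigonadal libraries and 48.6 to 56.5% in BAT, and the share of Elovl3 is lowest in the perigonadal libraries.

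The Elovl3 to Elovl6 ratio was 0.559, 0.359 and 0.623 in the inguinal, 0.229 and 0.280 in the perigonadal, and 0.856, 0.614 and 0.612 in the BAT libraries. Both perigonadal libraries were below all others, while inguinal WAT and BAT overlapped. The mean log2 ratio was -0.999 ± 0.42 (SD, n = 3) in inguinal WAT, -1.98 ± 0.20 (SD, n = 2) in perigonadal WAT and -0.55 ± 0.28 (SD, n = 3) in BAT. The exact permutation p over the 3 groups was 0.0464, or 0.0929 adjusted over the 6 ratios, so the difference did not pass. Perigonadal WAT against BAT alone gave a two-sided exact p of 0.1, the smallest that 2 against 3 libraries allow.

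The Elovl5 to Elovl6 ratio differed less, with overlapping groups (exact permutation p = 0.521). The Scd1 to Fasn and Elovl6 to Fasn ratios set each enzyme beside fatty acid synthase, which supplies their substrate. Scd1 to Fasn was 1.57, 1.92 and 1.39 in the inguinal, 3.68 and 2.77 in the perigonadal, and 1.80, 1.53 and 1.52 in the BAT libraries, so that only the perigonadal libraries stood apart, above the rest (exact permutation p = 0.0357, adjusted p = 0.0929). Elovl6 to Fasn was 0.330, 0.257 and 0.258 in the inguinal, 0.226 and 0.340 in the perigonadal, and 2.36, 1.03 and 1.22 in the BAT libraries. There the BAT libraries stood above both white depots, which overlapped (exact permutation p = 0.0357, adjusted p = 0.0929). None of the 6 ratios passed after adjustment.

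**Figure D4:**
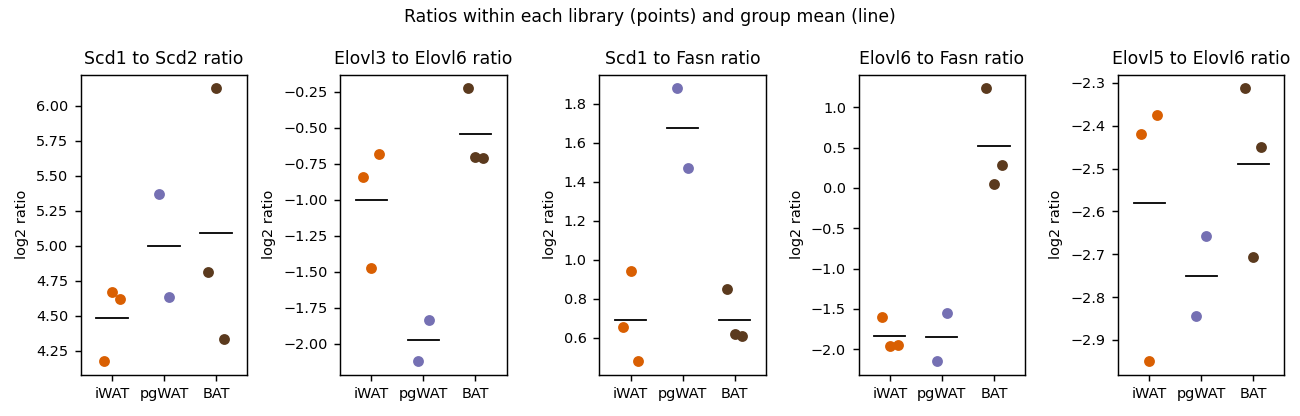
Log2 of the ratio of 2 genes within each library (vertical axis, with 0.1 FPKM added to each gene; its own range in each panel) in inguinal WAT (iWAT), perigonadal WAT (pgWAT) and BAT; points are libraries and lines are group means. The perigonadal libraries lie lowest for Elovl3 to Elovl6 and highest for Scd1 to Fasn, the BAT libraries lie highest for Elovl6 to Fasn, and the depots overlap for Scd1 to Scd2 and Elovl5 to Elovl6.

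Fads1 (chr19:10257378-10271362, plus strand) and Fads2 (chr19:10138654-10175993, minus strand), the delta-5 and delta-6 desaturases, start 81.4 kb apart and point away from each other. Fads1 had 4.34, 5.45 and 2.14 FPKM in the inguinal, 8.27 and 6.16 FPKM in the perigonadal, and 0, 0.299 and 1.06 FPKM in the BAT libraries. Fads2 had 2.70, 2.34 and 1.47 FPKM in the inguinal and 3.90 and 2.73 FPKM in the perigonadal libraries, and each BAT library listed it at 0. The white depots lay above BAT without overlap for both genes.

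The mean of Fads1 in inguinal WAT was 8.80 times that of BAT, with a log2 fold change of 1.78 ± 0.39 (SE, adjusted p = 0.00215). In perigonadal WAT it was 15.97 times that of BAT, with a log2 fold change of 2.55 ± 0.44 (SE, adjusted p = 2.87e-05). Without BAT replicate 3, which leaves 2 fragments in BAT, these folds were 26.6 (95% counting interval 7.37 to 219.8) and 48.3 (13.4 to 399). The inguinal call was lost without BAT replicate 1 (adjusted p = 0.0837), the library with no Fads1 fragment. After scaling the log2 fold change of Fads1 from BAT was 1.83 in inguinal (adjusted p = 0.00566) and 2.05 in perigonadal WAT (adjusted p = 0.00558). For Fads2 a floor of 3 fragments over the BAT group, or 0.362 FPKM, stood in for the BAT mean. The observed mean of Fads2 was 6.00 times that floor in inguinal WAT (limma adjusted p = 0.00301) and 9.17 times in perigonadal WAT (adjusted p = 0.00033). The floor covers counting error in BAT only, and not that of the white depots, so these are not lower bounds of the fold. These values rest on few fragments, 15 to 36 for Fads1 and 4 to 7.3 for Fads2 per inguinal library. The Fads1 to Fads2 ratio was 1.60, 2.33 and 1.46 in the inguinal and 2.12 and 2.26 in the perigonadal libraries, and has no value in BAT.

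Promoter sequences, 250 bases before to 50 bases after a start site on GRCm38.p6, were given by RefSeq for 6 of the 10 genes, in 7 entries: Elovl1 with 2 starts, Elovl5, Elovl6, Fads2, Scd3 and Scd4. Those of Elovl6 and Elovl5 are shown because these are the abundant elongases called higher in perigonadal WAT. Capitals mark matches on either strand to CCAAT (the NF-Y motif), CACGTG (an E-box) or GGGCGG (the Sp1 motif).
Elovl6, chr3:129532136-129532435, plus strand: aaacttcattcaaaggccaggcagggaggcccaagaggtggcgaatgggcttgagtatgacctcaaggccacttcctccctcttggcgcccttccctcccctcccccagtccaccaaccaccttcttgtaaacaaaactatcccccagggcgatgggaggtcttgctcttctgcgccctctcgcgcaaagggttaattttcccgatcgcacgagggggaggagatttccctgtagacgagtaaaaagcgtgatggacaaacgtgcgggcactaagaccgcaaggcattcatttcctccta
Elovl5, chr9:77917115-77917414, plus strand: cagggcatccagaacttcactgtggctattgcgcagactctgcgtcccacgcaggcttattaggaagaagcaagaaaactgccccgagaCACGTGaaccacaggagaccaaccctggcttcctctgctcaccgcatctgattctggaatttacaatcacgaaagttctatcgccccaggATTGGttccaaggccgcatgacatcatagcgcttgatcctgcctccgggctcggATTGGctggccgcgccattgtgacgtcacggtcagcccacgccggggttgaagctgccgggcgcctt
The Elovl6 window held none of these motifs, and the Elovl5 window held CACGTG once and CCAAT, as its reverse complement, in 2 places. Among the 7 entries CCAAT was found in 2 (37.4% of 32851 mouse promoters of that length), CACGTG in 1 (7.15%) and GGGCGG in 3 (35.7%). The sterol regulatory element TCACNCCAC was found in 0 of the 7 (1.24%), as were the direct repeats of nuclear receptors named DR4 (0.0152%) and DR1 (0.0396%). A match is a run of letters and not a shown binding site.

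The enzymes that make palmitate showed the same order of depots as Scd1. Of 8 genes of palmitate supply, all tested, limma called 7 higher in inguinal WAT than in BAT and 8 higher in perigonadal WAT, with none lower, both on the deposited scale and after scaling. Beside these counts and those of the lists that follow, 1.73% and 4.91% of all genes tested were called higher. Their median log2 fold change was 2.39 and 3.33, beside 0.03 and 0.52 for all genes tested. Fasn, fatty acid synthase, had 496 ± 183 FPKM (SD, n = 3) in inguinal WAT, 1037 ± 236 FPKM (SD, n = 2) in perigonadal WAT and 57.2 ± 23.4 FPKM (SD, n = 3) in BAT. Thrsp, a protein that promotes lipogenesis, had 457 ± 155, 802 ± 16.1 and 162 ± 27.0 FPKM in the same depots. Me1, malic enzyme, which makes NADPH for the pathway, had 268 ± 65.7, 437 ± 45.1 and 40.4 ± 0.805 FPKM. Between the white depots limma called 0 of the 8, and 7 of the 8 had an unadjusted p under 0.05 on the deposited scale, all lower in inguinal WAT. The median log2 fold change there was -1.02 for the 8 and -0.50 for all genes tested. After scaling the log2 fold changes of the 8 ran from -0.43 for Fasn to -0.05 for Me1 (adjusted p 0.706 to 0.971).

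The elongases work in a cycle with a reductase, a dehydratase and a second reductase, and of 6 such genes 5 were tested. Limma called 0 of them for inguinal WAT against BAT, with 1 at an unadjusted p under 0.05. After scaling it called 1 higher there, Tecr (adjusted p = 0.0292, background 2.99% of genes tested). On the deposited scale it called 2 higher in perigonadal WAT than in BAT. The latter were Hsd17b12, the first reductase, at 385 ± 23.7 FPKM in perigonadal WAT and 166 ± 6.49 FPKM in BAT (SD, adjusted p = 0.0303), and Tecr, the last reductase, with 119 ± 2.91 against 39.1 ± 2.54 FPKM (adjusted p = 0.0122). In inguinal WAT these genes had 247 ± 55.3 and 74.8 ± 26.6 FPKM (SD, n = 3). Neither call held when any 1 library of perigonadal WAT or BAT was left out, and Hsd17b12 was not called after scaling (adjusted p = 0.23).

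Desaturases draw electrons from NADH and NADPH through cytochrome b5 and its reductases. Of 6 such genes 5 were tested, and limma called 0 for inguinal WAT against BAT, with 0 at an unadjusted p under 0.05. Cyb5, the cytochrome b5 of the endoplasmic reticulum, stood at 110.3 ± 9.17 FPKM in the inguinal and 76.8 ± 19.6 FPKM in the BAT libraries (SD, n = 3 each). The pair called higher in perigonadal WAT than in BAT were Cyb5b, a cytochrome b5 of the mitochondrial outer membrane (110 ± 31.2 against 39.8 ± 9.61 FPKM, adjusted p = 0.0378), and Cyb5r3, a cytochrome b5 reductase (38.0 ± 8.20 against 12.6 ± 1.56 FPKM, adjusted p = 0.0319). Without perigonadal replicate 1 the adjusted p was 0.809 and 0.686, and each was also lost without any single BAT library. After scaling Cyb5b was not called in perigonadal WAT (adjusted p = 0.0703), while Cyb5r3 was also called higher in inguinal WAT than in BAT (adjusted p = 0.0466).

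Of 7 other desaturases and elongases only Fads3 and Degs1 were tested. Fads3, a relative of Fads1 and Fads2, had 2.67 ± 1.58 FPKM (SD, n = 3) in inguinal WAT, 11.96 ± 7.56 FPKM (SD, n = 2) in perigonadal WAT and 0.245 ± 0.0972 FPKM (SD, n = 3) in BAT. Like the rare members it passed the filter only through WAT libraries. It was called in all 3 comparisons, with a log2 fold change from BAT of 1.48 in inguinal (adjusted p = 0.0219) and 3.25 in perigonadal WAT, and of -1.77 between inguinal and perigonadal WAT (adjusted p = 0.0289). The first of these was lost on leaving out inguinal replicate 1 or 2 or any BAT library (adjusted p 0.0829 to 0.284), and the last on scaling (adjusted p = 0.189) or without inguinal replicate 1 or 3 or perigonadal replicate 1. Degs1, the desaturase of ceramide synthesis, was not called and had 28.8 ± 10.6, 32.8 ± 5.68 and 25.2 ± 1.33 FPKM in inguinal WAT, perigonadal WAT and BAT.

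Of 13 regulators of lipogenic genes, all tested, limma called 0 for inguinal WAT against BAT, with 1 at an unadjusted p under 0.05, and 3 higher in perigonadal WAT. After scaling, 3 were called for inguinal WAT against BAT, 2 higher and 1 lower. The 3 genes higher in perigonadal WAT were also called after scaling. Insig1, which holds the SREBP proteins in the endoplasmic reticulum, had 59.1 ± 23.4 FPKM (SD, n = 3) in inguinal WAT, 135 ± 13.1 FPKM (SD, n = 2) in perigonadal WAT and 23.9 ± 3.66 FPKM (SD, n = 3) in BAT. Srebf1, which encodes the lipogenic SREBP, had 16.1 ± 3.81, 37.7 ± 12.3 and 9.66 ± 3.09 FPKM, and Mlxipl, the carbohydrate-responsive factor ChREBP, had 9.10 ± 3.11, 23.6 ± 8.40 and 4.86 ± 0.608 FPKM. The perigonadal calls of Srebf1 and Mlxipl were lost without perigonadal replicate 1 (adjusted p = 0.401 and 0.249), and that of Srebf1 also without BAT replicate 1 (adjusted p = 0.0978). Of the ceramide synthases, 2 of 6 were tested, Lass2 and Lass5, and limma called 0 in any comparison, with 0 at an unadjusted p under 0.05.

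Genes of other cell types also differed between the depots. Summed over 12 mammary luminal markers the level was 98.7 to 122 FPKM in inguinal, 2.58 to 3.16 FPKM in perigonadal and 7.02 to 22.3 FPKM in BAT libraries, where 10 of the 12 were at 0 in every library. The 8 smooth muscle markers summed to 43.1 to 137, 8.83 to 15.1 and 6.95 to 8.33 FPKM, and the 5 basal and myoepithelial markers to 10.8 to 29.0, 4.87 to 5.76 and 0 FPKM. In BAT the smooth muscle sum was almost all Des, at 6.83, 7.77 and 7.39 FPKM. Des was not higher in inguinal WAT, at 4.74, 6.75 and 2.98 FPKM. The perigonadal sum of the basal and myoepithelial markers was mostly Oxtr, at 5.49 and 3.62 FPKM.  The BAT sum of the mammary luminal markers was almost all Csn3, a milk casein, at 7.02, 13.1 and 22.0 FPKM. The 5 fibroblast markers summed to 7.93 to 11.98 FPKM in inguinal, 10.7 to 65.7 FPKM in perigonadal and 1.29 to 5.87 FPKM in BAT libraries, the 5 endothelial markers to 1.04 to 4.19, 5.43 to 10.3 and 2.50 to 3.64 FPKM, and the 5 macrophage markers to 1.24 to 4.33, 5.10 to 10.4 and 3.53 to 6.84 FPKM. The 7 markers of sebaceous gland and epidermis, tissues that use Scd1, Scd3 and Elovl3, summed to at most 1.93 FPKM in any library. The part of any of these cells in the values of the 10 genes was not tested.

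Adipocyte markers were present throughout. The 6 thermogenic markers, which include Ucp1, summed to 1358 to 3080.0 FPKM in inguinal, 3046 to 3330.5 FPKM in perigonadal and 3907 to 4970.4 FPKM in BAT libraries. Of the 6, only Cox7a1 and Cox8b were higher in every BAT library than in every white depot library. Ucp1 itself overlapped, with 592 to 1417 FPKM in inguinal, 1282 and 1593 FPKM in perigonadal and 1313 to 1575 FPKM in BAT libraries. The 6 markers of all adipocytes summed to 2714 to 5178, 5385 to 8407 and 3095 to 3733 FPKM. The 5 white adipocyte markers summed to 115 to 155, 262 to 701 and 0.895 to 9.36 FPKM, which is the same order of depots as for Scd1. Whether the white depot libraries held RNA of adipocytes without UCP1 was not tested, and fewer cells of a type cannot be told apart from less RNA per cell.

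The genes whose log2(FPKM + 1) followed a member most closely over the 8 libraries, among 3095 genes with a mean of at least 5 FPKM, are given as a description, since the depots and the depth of the libraries are shared by all points. For Scd1 they were Slc25a10, a mitochondrial dicarboxylate carrier, Idi1 and Lss, enzymes of sterol synthesis, and Acaca, acetyl-CoA carboxylase, each with a Pearson r of 0.99. For Scd2 they were Aacs, acetoacetyl-CoA synthetase, with an r of 0.996, and Retn, the adipokine resistin, Hk2, a hexokinase, and Acss2, acetyl-CoA synthetase, each with 0.99. For Elovl6 they were Insig1 and the glycolytic Gpi1 with 0.99, and the glycolytic Pkm2 and the pentose phosphate enzyme Pgd with 0.98. Elovl3 had no such close companions: Mid1ip1, which activates acetyl-CoA carboxylase, had 0.88, and Bzw2, Stt3a and Orm1 had 0.86. After scaling those 4 values were 0.60, 0.50, 0.69 and 0.80.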

How the data were processed

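The deposited files, 1 per library, hold FPKM per transcript with confidence bounds, made by the authors with TopHat and Cufflinks on mm9, per the submitters' processing notes. Versions and options are not named there. They hold no counts. Other attributes of the transcript lines, such as the coverage in the deposited files, were not used. Fragment numbers were estimated from the FPKM and its upper bound in genes with 1 transcript, and 83.9 to 92.8% of low values came out whole within 0.05. FPKM was summed per gene. Genes that reached 1 FPKM in 2 or more libraries, with a transcript of 300 bases or longer, were tested with limma 3.58.1 (R 4.3.3, variance trend, two-sided) on log2(FPKM + 1), fitting the 3 groups and 8 libraries together and adjusting p by Benjamini-Hochberg over 8958 genes. Ratios within a library were tested by exact permutation over 560 assignments after adding 0.1 FPKM. Scripts were tested on simulated data (Python 3.11.15, pandas 2.3.3, numpy 2.4.6, matplotlib 3.10.9). The named genes were all 10 members, of each list the called genes with the highest mean FPKM (at most 3) or else the highest 2 tested, and the 4 genes most similar to each of Scd1, Scd2, Elovl3 and Elovl6. Members, lists and tests were chosen with earlier results of these data known. Alternatives were other pseudocounts, filters, scalings, a replicate block, no variance trend, only the groups compared, the most abundant transcript, and leaving out each library.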

Additional observations from a re-analysis of the deposited data

How the results depend on the processing

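Of the single-gene values of the 10 genes under the alternatives tried, 476 kept direction and side of the threshold, 27 lost and 18 gained a call, and 9 changed sign. For inguinal WAT against BAT the number of genes called was 4, 0 with no filter on low values (9 at an unadjusted p under 0.05), 7 with quantile normalization and 3 to 6 when 1 library was left out. For perigonadal WAT against BAT it was 9, and 7 to 9 when 1 library was left out. For inguinal against perigonadal WAT it was 1, 2 with a pseudocount of 5, and 0 with a pseudocount of 0.1, no filter, median-ratio scaling, quantile normalization or the most abundant transcript (5, 6, 2, 2 and 7 at an unadjusted p under 0.05), and 0 to 2 when 1 library was left out. The causes were not tested. With no filter, where more genes enter the variance trend and the adjustment, the adjusted p of Scd1 in inguinal WAT against BAT was 0.0773.

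The sign changed for values that were not called. Elovl3 in perigonadal WAT against BAT was -0.22 after median-ratio scaling. In inguinal against perigonadal WAT, median-ratio scaling and quantile normalization gave 0.14 and 0.16 for Elovl1, 0.55 and 0.40 for Elovl3 and 0.0289 and 0.0593 for Fads2, and with 1 library left out Elovl3 ran from -0.32 to 0.0917, above 0 without inguinal replicate 3 (0.0101) or perigonadal replicate 2. The log2 ratio of perigonadal WAT minus BAT was -0.09 for Scd1 to Scd2 with 0.1 FPKM added. For Fads1 to Fads2 it was -0.74, a value set by the added constant, since Fads2 is 0 in BAT, and not read as a difference. With 1 FPKM added these were 0.36 and 0.46, and with 1 library left out they ran from -0.47 to 0.43 and from -1.66 to 0.11. The other ratios kept their direction under all alternatives run. Median-ratio scaling moved the split of higher and lower calls over all genes from 155 and 42 to 268 and 146 (inguinal WAT against BAT), from 440 and 24 to 234 and 313 (perigonadal WAT against BAT), and from 27 and 36 to 28 and 0 (inguinal against perigonadal WAT).

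No label says what a replicate number stands for, and not every same-numbered pair correlated above 0.1, so the numbers were not taken as pairs. Deviations of same-numbered libraries correlated at 0.126, 0.0804 and 0.1003 between inguinal WAT and BAT, each library best with its own number, which is a hint from the data, and at -0.0272 and -0.0871 or -0.0136 and -0.0184 in pairs with perigonadal WAT. With the replicate block the number of genes called was 6, 9 and 2 for inguinal WAT against BAT, perigonadal WAT against BAT and inguinal against perigonadal WAT. Under the block Scd2 was called between the white depots (adjusted p = 0.0399), while Cyb5b and Cyb5r3 were not called in perigonadal WAT against BAT (0.0775 and 0.0505). Of the pathway lists, tried in the same ways after the data were seen, palmitate supply had 7 to 8 called in both comparisons with BAT when 1 library was left out, and the regulators 1 to 4 in perigonadal WAT. Depth limits Fads2, Fads1, Elovl1, Scd3 and Scd4 in BAT, which rest on at most 7 fragments where these could be estimated.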
